A study of Mus musculus with 12 samples.

Results

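The transforming growth factor beta (TGF-beta) and bone morphogenetic protein (BMP) pathway was followed as 48 genes: 10 ligands, 10 genes of ligand processing, storage or antagonism, 11 receptors and co-receptors, 8 SMADs, 4 SMAD regulators and 5 target genes. They were picked by symbol from the 55492 genes of the deposited count table, and all 48 were found. Of these, 46 had 10 or more counts in at least 3 of the 12 libraries and entered the tests. The receptor gene Bmpr1b and the target gene Id4 did not.

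The libraries came from CCN6KOT, a primary cell line from a mouse breast tumour labelled spindle metaplastic, a type of breast cancer whose epithelial cells have taken a mesenchymal shape. Every group had been infected with lentivirus and selected with puromycin. The groups, with 3 libraries each, were cells with a dominant negative TCF4 construct and a second construct labelled EZH2 (DNTCF4-EZH2), cells with dominant negative TCF4 and a second construct labelled SET (DNTCF4-SET), cells titled as dominant negative TCF4 with a vector (DNTCF4), and cells with a control lentivirus (Vector). TCF4, the product of Tcf7l2, is the factor through which beta-catenin switches on Wnt target genes, and EZH2 is the enzyme of Polycomb repressive complex PRC2 that methylates histone H3. The labels do not expand SET. The study asked what dominant negative TCF4 changes and what the added proteins restore. The labels name no promoter for the constructs, and do not state that libraries of a group were separate cultures; p-values then cover spread that may be technical only.

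Library totals were 23597545 to 33999982 counts. Ezh2 lay at 429 to 470 CPM (counts scaled to library size) in DNTCF4-EZH2 and 509 to 574 CPM in DNTCF4-SET, against 62.7 to 68.8 CPM in DNTCF4 and 56.5 to 59.5 CPM in Vector, so reads on Ezh2 were high under both second constructs. Reads on Tcf7l2 lay at 37.0 to 41.4 CPM in DNTCF4, against 8.63 to 13.6 CPM in Vector. DNTCF4 replicate 1 stood apart from its group: its counts differed from those of replicates 2 and 3 far more than those did from each other (chi-square over degrees of freedom 20.7 and 13.1, against 3.33). The DNTCF4-EZH2 libraries were uneven too, at 16.3 between replicates 1 and 2, against 6.33 and 6.09 for the other pairs. The mesenchymal genes Vim, Zeb1, Zeb2 and Fn1 and the keratins Krt8 and Krt18 were present in all groups, Twist1 and Krt5 were at or near 0, and Epcam and Cdh1 stayed at or below 1.15 CPM. Of the 6 leukocyte markers, Cd68 held nearly all of the sum and Ptprc stayed at or below 0.592 CPM.

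TGF-beta family ligands are secreted dimers. TGF-betas are stored in the matrix as latent complexes with the LTBP proteins, activins and BMPs are held in check by soluble antagonists such as follistatin, gremlin and noggin, and free ligand joins type I and type II receptor kinases. TGF-beta and activin receptors phosphorylate SMAD2 and SMAD3, BMP receptors phosphorylate SMAD1, SMAD5 and SMAD9, and both sets enter the nucleus with SMAD4. SMAD6, SMAD7, the SMURF ubiquitin ligases and the SKI proteins dampen the signal. In breast tumours the pathway is known for limiting epithelial growth and for driving the change to a mesenchymal state.

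Promoter sequence is shown for some of the genes on which the comparisons below turn. Inhba and Acvr2b were higher in DNTCF4, and Tgfb2, Bmp4, Grem1 and Ltbp1 were lower. RefSeq starts on GRCm38.p6 were available for 36 of the 48 genes, and none was given for Fst, Bmp2, Smad2, Skil, Tgfbr3, Smad7, Bmp1, Bmp7, Tgfb3, Nog, Id1 or Smad4. The 250 bases before each start were searched on both strands for the TCF/LEF letters, spelled CTTTGAA or alternatively CTTTGAT and further as CTTTGTA or alternatively CTTTGTT, for the palindromic SMAD element GTCTAGAC and for the GC-rich SMAD letters GGCGCC; none of these overlaps another. Sequences run 5′ to 3′ on the strand of the gene and end at its RefSeq start, except that of Acvr2b. That one covers 190 bases and ends 60 bases before the RefSeq start, since the rest lies inside a GENCODE transcript. Capitals mark the matches.
Inhba, chr13:16011601-16011850, plus strand: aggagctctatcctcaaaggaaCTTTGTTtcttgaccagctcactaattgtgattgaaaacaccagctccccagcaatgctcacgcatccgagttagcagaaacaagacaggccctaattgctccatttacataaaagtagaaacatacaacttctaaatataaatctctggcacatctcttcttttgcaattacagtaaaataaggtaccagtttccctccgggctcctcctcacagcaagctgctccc
Acvr2b, chr9:119401928-119402117, plus strand: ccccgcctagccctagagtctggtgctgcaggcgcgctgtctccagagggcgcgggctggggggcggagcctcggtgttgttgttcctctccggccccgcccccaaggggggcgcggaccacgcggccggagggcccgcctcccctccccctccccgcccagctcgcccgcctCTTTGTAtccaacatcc
Tgfb2, chr1:186705990-186706239, minus strand: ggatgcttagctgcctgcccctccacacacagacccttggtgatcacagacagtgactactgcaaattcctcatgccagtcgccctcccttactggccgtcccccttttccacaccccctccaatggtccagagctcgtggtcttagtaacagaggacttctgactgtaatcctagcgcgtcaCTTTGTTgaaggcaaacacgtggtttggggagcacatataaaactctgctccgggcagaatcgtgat
Bmp4, chr14:46390670-46390919, minus strand: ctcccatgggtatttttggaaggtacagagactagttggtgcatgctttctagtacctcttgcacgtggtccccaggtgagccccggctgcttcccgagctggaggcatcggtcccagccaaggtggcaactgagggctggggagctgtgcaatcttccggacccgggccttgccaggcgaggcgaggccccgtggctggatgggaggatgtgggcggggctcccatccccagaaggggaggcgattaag
Grem1, chr2:113758649-113758898, minus strand: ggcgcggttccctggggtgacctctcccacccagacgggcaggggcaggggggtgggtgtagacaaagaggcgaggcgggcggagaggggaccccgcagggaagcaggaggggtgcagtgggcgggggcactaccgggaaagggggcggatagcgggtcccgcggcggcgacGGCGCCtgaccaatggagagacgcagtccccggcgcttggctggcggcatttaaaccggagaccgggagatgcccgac
Ltbp1, chr17:75005279-75005528, plus strand: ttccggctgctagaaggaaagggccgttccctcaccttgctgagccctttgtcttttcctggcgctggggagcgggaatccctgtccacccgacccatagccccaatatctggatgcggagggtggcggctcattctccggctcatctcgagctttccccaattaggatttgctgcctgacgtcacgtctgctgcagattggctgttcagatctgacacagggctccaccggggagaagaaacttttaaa
Counted from the RefSeq start, the TCF/LEF letters were found 228 bases upstream at Inhba, 77 at Acvr2b and 67 at Tgfb2. They were also found at Tgfbr1 and Bmpr1b, which makes 5 of 36 (13.9%) against 14.8% of all 32851 promoters. By direction in DNTCF4, 2 of 8 higher genes had them (25.0%), 1 of 17 lower (5.88%) and 1 of 9 not called (11.1%). The sequences shown include each called gene with these letters, while Acvr1b, also higher in DNTCF4, had none and is not shown. GGCGCC was found at 10 of 36 (27.8%), against 9.59% of all promoters, and the promoters were not matched for GC content. It was found at 5 of 17 genes lower in DNTCF4 (29.4%: Grem1, Id2, Smad9, Smurf2 and Tgfbi). Of genes not called, 4 of 9 had it (44.4%: Bmpr1a, Bmpr2, Ski and Tgfbr1), and of genes higher in DNTCF4, 0 of 8. The untested Id4 had it too. GTCTAGAC was found at none of the 36 and at 0.167% of all promoters. A match describes letters only; binding was not measured.

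Levels between genes are compared as mean CPM per kilobase of exon. Among ligands, Inhba, which encodes the activin A subunit, stood first in DNTCF4 at 43.3 CPM per kb, ahead of Gdf15, a stress-induced distant family member, at 38.4 CPM per kb and Bmp4, a BMP ligand, at 22.6 CPM per kb. In Vector the order was different: Bmp4 stood first at 44.9 CPM per kb, then Gdf15 at 24.3 and Inhba at 22.0 CPM per kb. Tgfb1 lay at 16.9 CPM per kb in DNTCF4 and 18.7 CPM per kb in Vector, above Tgfb2 and Tgfb3, which stayed at or below 4.87 CPM per kb in either group. Gremlin (Grem1), a secreted BMP antagonist, was the most abundant storage or antagonist gene in both groups, at 48.2 CPM per kb in DNTCF4 and 89.3 CPM per kb in Vector; in DNTCF4, Fstl1, a secreted follistatin-like glycoprotein, was next to it at 47.7 CPM per kb.

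Receptors for TGF-beta, activin and BMP were all present except the BMP receptor gene Bmpr1b, which had 1 count in all DNTCF4 libraries together and 8 in all Vector libraries. In DNTCF4 the activin type I receptor gene Acvr1b led at 28.0 CPM per kb, with the co-receptor gene Tgfbr3 (betaglycan) at 26.3, Tgfbr2 at 16.8, Bmpr1a at 14 and Tgfbr1 at 13.7 CPM per kb. In Vector, Tgfbr3 led at 22.3 CPM per kb and Acvr1b stood at 14.3 CPM per kb. Smad4, the common partner, was the highest SMAD in both groups, at 43.1 CPM per kb in DNTCF4 and 41.4 CPM per kb in Vector, and Smad9 the lowest, at 0.928 and 1.36 CPM per kb in DNTCF4 and Vector. Of the Id genes, BMP targets that encode inhibitors of basic helix-loop-helix factors, Id1 lay at 13.7 CPM per kb in DNTCF4 and 18.6 CPM per kb in Vector, Id2 at 0.736 CPM per kb in DNTCF4 and 1.32 CPM per kb in Vector, and Id4 had 0 counts in the DNTCF4 libraries together and 12 in the Vector libraries.

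**Figure D1:**
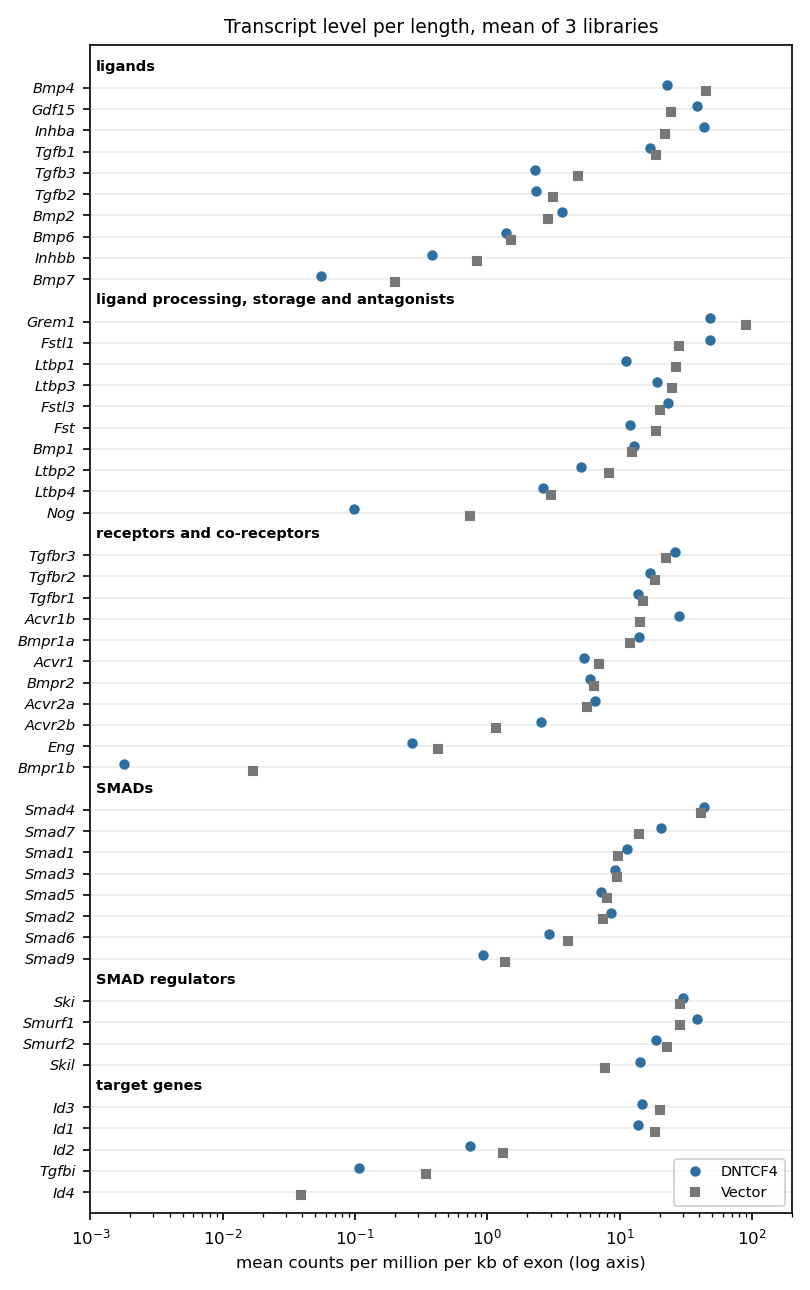
Mean CPM per kilobase of exon (log axis) of the 48 genes in DNTCF4 (circles) and Vector (squares), 3 libraries per group, by role and ordered by the Vector level; Id4 had no count in DNTCF4 and has no circle there. Inhba lies right of its Vector level and Bmp4, Grem1 and Ltbp1 left of theirs, while Smad4 stands at 43.1 against 41.4 CPM per kb.

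Dominant negative TCF4 went with lower transcript levels of BMP4, gremlin, TGF-beta 3 and the latency protein LTBP1. It also went with higher levels of the activin A subunit and of the activin receptors ACVR1B and ACVR2B. Of the 46 genes tested, 22 (47.8%) fell and 13 (28.3%) rose in DNTCF4 against Vector by edgeR's quasi-likelihood test, Benjamini-Hochberg adjusted over 15052 genes at a threshold of 0.05. Over all genes tested, 28.0% fell and 29.5% rose. The median log2 change of the 46 was -0.14, against 0.0073 over all genes. Changes below are log2 fold changes (SE), and levels in CPM are scaled by edgeR's TMM factors.

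Of the 10 ligands, 3 (30%) rose and 5 (50%) fell, where 29.5% of all genes tested rose and 28.0% fell. Inhba (chromosome 13, 16011851 to 16031621) had 315, 256 and 260 CPM in the DNTCF4 libraries, against 142, 141 and 139 CPM in the Vector libraries. The groups did not overlap, and replicate 1, the library that stood apart, was the highest of the DNTCF4 group; the change was 0.98 (SE 0.061, adjusted p = 2.73e-09). Gdf15 rose by 0.66 (SE 0.057) and Bmp2, a BMP ligand, by 0.35 (SE 0.078).

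Bmp4 (chromosome 14, 46383520 to 46390669) had 47.9, 51.7 and 52.9 CPM in the DNTCF4 libraries, against 98.5, 101 and 104 CPM in the Vector libraries. Each DNTCF4 library lay far below each Vector library, a change of -0.99 (SE 0.052, adjusted p = 3.59e-10). Tgfb3 (chromosome 12, 86056745 to 86079041), the third TGF-beta ligand, had 7.63, 8.31 and 7.15 CPM in DNTCF4, against 14.8, 17.5 and 17.2 CPM in Vector. These groups lay well apart too, with a change of -1.09 (SE 0.084, adjusted p = 2.98e-08).

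Inhbb (chromosome 1, 119415465 to 119422248), which encodes the activin B subunit, had 1.83, 1.72 and 1.36 CPM in DNTCF4, against 3.88, 3.77 and 2.94 CPM in Vector. Its change of -1.11 (SE 0.17, adjusted p = 3.98e-05) was opposite to that of the activin A subunit gene, though at levels far below it: 0.384 CPM per kb in DNTCF4, where Inhba had 43.3. Tgfb2 (chromosome 1, 186622792 to 186705989) had 12.8, 13.3 and 14.4 CPM in DNTCF4, against 17.1, 19.3 and 18.2 CPM in Vector, without overlap (-0.43, SE 0.063, adjusted p = 3.18e-05). Bmp7, another BMP ligand, fell by 1.82 (SE 0.41) on few counts, 19 in all DNTCF4 libraries together and 62 in all Vector libraries. The major TGF-beta ligand gene Tgfb1 was not called, at 71.3, 95.9 and 88.2 CPM in DNTCF4 against 86.9, 95.8 and 99.8 CPM in Vector (-0.14, 95% interval -0.32 to 0.03). Its DNTCF4 libraries spread widely, with replicate 1 lowest. It was called lower at -0.24 (adjusted p = 0.016) without DNTCF4 replicate 2 and at -0.14 (adjusted p = 0.024) without the filter on low counts.

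Of the 10 genes for processing, storage and antagonism, 2 (20%) rose and 6 (60%) fell, against 29.5% and 28.0% of all genes tested. Among those that fell were 3 antagonists and 3 of the 4 LTBP genes. Ltbp1 (chromosome 17, 75005568 to 75392512), whose product ties latent TGF-beta to the matrix, had 124, 113 and 117 CPM in DNTCF4, against 265, 295 and 287 CPM in Vector. The 2.39-fold lower level (-1.25, SE 0.044) had the smallest p of the 46 genes, adjusted p = 2.61e-12. Ltbp2, which binds fibrillin and no TGF-beta, fell by 0.70 (SE 0.055), and Ltbp3, which carries latent TGF-beta, by 0.38 (SE 0.059). Ltbp4, the remaining LTBP gene, was at -0.18 (SE 0.077) and not called, though it was called at -0.23 without DNTCF4 replicate 2 or Vector replicate 3 (adjusted p = 0.032 and 0.035).

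Grem1 (chromosome 2, 113746164 to 113758646) had 216, 188 and 195 CPM in DNTCF4, against 372, 370 and 369 CPM in Vector, so the Vector libraries were nearly equal and the highest DNTCF4 library stayed far below them (-0.89, SE 0.045, adjusted p = 2.18e-10). Nog (chromosome 11, 89300638 to 89302332), which encodes the BMP antagonist noggin, had 0.229, 0.127 and 0.147 CPM in DNTCF4, against 1.17, 1.33 and 1.26 CPM in Vector. That is 7.41-fold lower (-2.89, SE 0.44, adjusted p = 4.76e-05), and rests on 14 counts in all DNTCF4 libraries together and 97 in all Vector libraries. Nog had 10 or more counts in 4 of the 12 libraries, none of them DNTCF4. It thus entered the tests through libraries in which it was higher, so the filter had already favoured this direction. Fst, which encodes the activin antagonist follistatin, fell by 0.63 (SE 0.048), at 53.9 to 55.9 CPM in DNTCF4 against 82.6 to 87.7 CPM in Vector. Fstl1 rose by 0.77 (SE 0.037), at 228 to 245 CPM in DNTCF4 against 135 to 143 CPM in Vector. Fstl3, a follistatin-like activin antagonist, was called at 0.20 (SE 0.075, adjusted p = 0.0314), but its groups overlapped and the call was lost in 7 of the alternatives, with adjusted p of 0.053 to 0.166. Bmp1, a metalloproteinase that cleaves procollagen and LTBP1, was at 0.06 (SE 0.046) and not called, but was called at 0.11 (adjusted p = 0.0049) without DNTCF4 replicate 1.

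Of the 10 receptors and co-receptors tested, 3 (30%) rose and 3 (30%) fell, near the 29.5% and 28.0% of all genes tested. Acvr1b (chromosome 15, 101174067 to 101213684) had 128, 123 and 121 CPM in DNTCF4, against 64.7, 62.1 and 62.7 CPM in Vector. Acvr2b (chromosome 9, 119402118 to 119434995), a type II receptor for activins, had 8.50, 10.4 and 11 CPM in DNTCF4, against 4.67, 4.96 and 4.15 CPM in Vector. Neither gene's groups overlapped, and the changes were 0.97 (SE 0.042, adjusted p = 2.91e-11) for Acvr1b and 1.11 (SE 0.10, adjusted p = 1.92e-07) for Acvr2b. The related type II receptor gene Acvr2a was at 0.20 (SE 0.088) and not called (adjusted p = 0.0605), but it was called higher in 4 alternatives, at adjusted p of 0.0040 to 0.038. Tgfbr3 rose by 0.24 (SE 0.032).

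The BMP and activin type I receptor gene Acvr1 fell by 0.36 (SE 0.051) and the TGF-beta type II receptor gene Tgfbr2 by 0.13 (SE 0.035). The co-receptor gene Eng (endoglin) fell by 0.65 (SE 0.22, adjusted p = 0.0218) at 0.915 to 1.34 CPM in DNTCF4 against 1.51 to 1.85 CPM in Vector. Its call was lost when DNTCF4 replicate 1 or 3 or Vector replicate 1 or 2 was left out (adjusted p of 0.056 to 0.069), and 1.51% of its exon bases lie opposite exons of Fpgs, which had 4440 counts against 498 for Eng. The sources used here do not say whether counting used strand. Tgfbr1, Bmpr1a and Bmpr2, the other core type I and type II receptor genes, were between -0.13 and 0.23 and not called. Leaving out a library changed this: Tgfbr1 was called at -0.27 (adjusted p = 6.58e-06) without DNTCF4 replicate 1, and Bmpr2 at -0.10 (adjusted p = 0.021) without that library and at -0.11 (adjusted p = 0.046) without Vector replicate 2. Bmpr1a was called at 0.33 (adjusted p = 0.0045) and 0.29 (adjusted p = 0.031) without DNTCF4 replicate 2 or 3, and without the filter on low counts both Bmpr1a (0.23, adjusted p = 3.47e-05) and Tgfbr1 (-0.13, adjusted p = 0.034) were called.

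Of the 8 SMADs, 3 (37.5%) rose and 3 (37.5%) fell, all by less than 1.5-fold, where 29.5% of all genes tested rose and 28.0% fell. Smad7, which encodes an inhibitory SMAD induced by TGF-beta, had 85.0, 95.5 and 95.6 CPM in DNTCF4, against 60.7, 62.1 and 65.1 CPM in Vector (0.56, SE 0.054, adjusted p = 3.84e-07). Smad6, the inhibitory SMAD of the BMP arm, went the other way, at 8.69 to 10.4 CPM in DNTCF4 against 11.7 to 13.9 CPM in Vector (-0.45, SE 0.086). Among signalling SMADs, Smad1 rose by 0.24 (SE 0.044) and Smad2 by 0.20 (SE 0.052), while Smad9 fell by 0.55 (SE 0.091). Smad5 was called at -0.14 (SE 0.053, adjusted p = 0.03) with overlapping groups, and that call was lost in 5 alternatives. Smad3 and Smad4 were at -0.02 and 0.06 and not called.

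Of the 4 SMAD regulators, Skil, which encodes the SMAD repressor SnoN, had 156, 125 and 131 CPM in DNTCF4, against 73.4, 72.5 and 78.0 CPM in Vector, a change of 0.88 (SE 0.064, adjusted p = 1.52e-08). The ubiquitin ligase genes went opposite ways: Smurf1 was at 0.45 (SE 0.034) and Smurf2 at -0.27 (SE 0.050). Ski, the founding repressor of the family, was at 0.07 (SE 0.037) and not called, but was called at 0.10 (adjusted p = 0.0039) without DNTCF4 replicate 1. The 4 target genes tested fell, where 28.0% of all genes did. Other targets went both ways: Smad7 rose, 5 of 21 TGF-beta targets listed apart rose and 11 fell, and 5 of 10 BMP targets rose and 3 fell. Id1 (chromosome 2, 152736251 to 152737410) had 15.2, 16.1 and 16.2 CPM in DNTCF4, against 21.7, 23.2 and 19.8 CPM in Vector (-0.44, SE 0.073, adjusted p = 9.71e-05). Id2 fell by 0.83 (SE 0.19) and Id3 by 0.45 (SE 0.084). Tgfbi (chromosome 13, 56609523 to 56639562), which encodes a TGF-beta-induced matrix protein, had 0.229, 0.478 and 0.513 CPM in DNTCF4, against 1.36, 1.37 and 1.13 CPM in Vector; the change of -1.64 (SE 0.31, adjusted p = 0.000385) rests on 35 and 100 counts in all DNTCF4 and all Vector libraries.

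**Figure D2:**
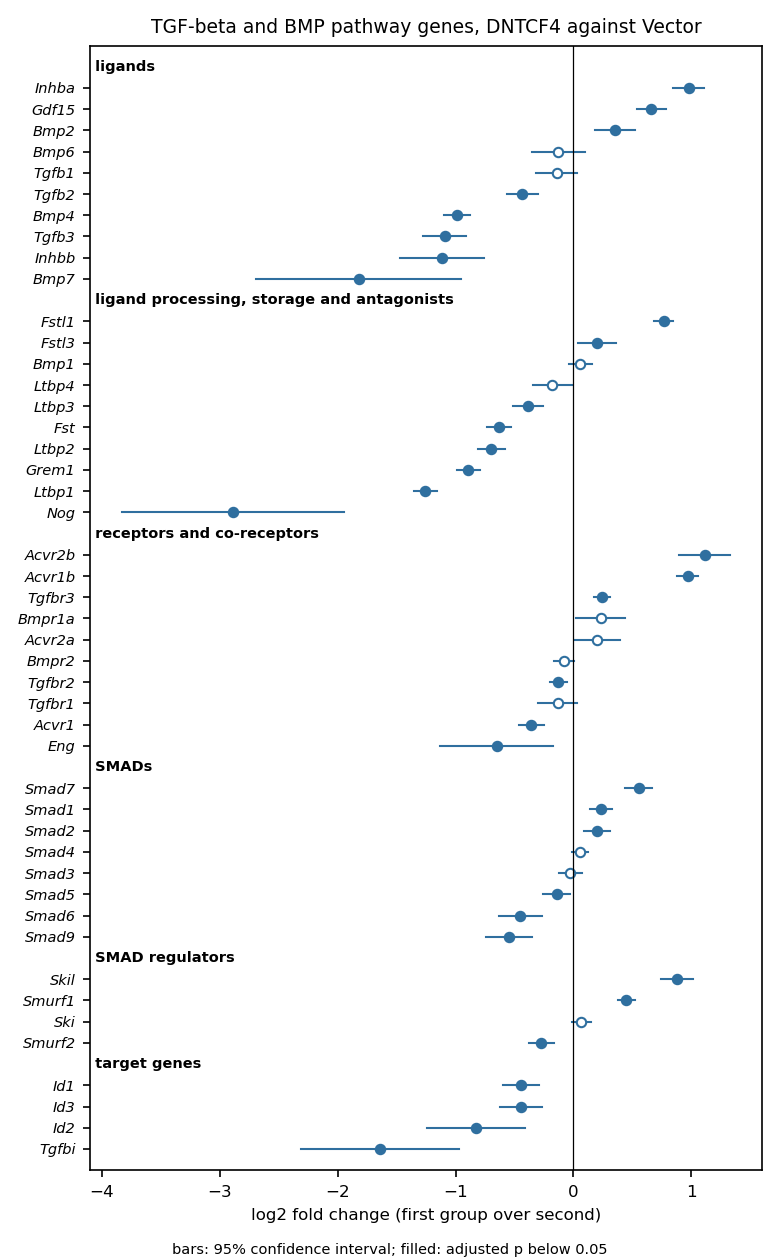
Log2 fold change of the 46 tested genes in DNTCF4 against Vector with 95% confidence intervals from the fit of 12 libraries (n = 3 per group); filled points have an adjusted p below 0.05. Points right of 0 are higher in DNTCF4. Nog at -2.89 and Bmp7 at -1.82 lie farthest left with wide intervals, and Acvr2b at 1.11, Inhba at 0.98 and Acvr1b at 0.97 farthest right.

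Of the 35 calls, 32 were kept in every alternative run, and Eng, Fstl3 and Smad5 were not. Summed markers of some other cells moved in the same comparison. The 4 basal epithelial markers summed to 3.04 to 3.62 CPM in DNTCF4 against 9.48 to 10.2 CPM in Vector. Endothelial markers summed to 3.16 to 3.82 CPM in DNTCF4 against 1.80 to 2.55 CPM in Vector, with Tek at or near 0. Cdh5 and Kdr were higher in DNTCF4, but Pecam1 lay at 0.446 to 0.953 CPM in DNTCF4 against 0.716 to 0.925 CPM in Vector. The luminal epithelial, leukocyte and adipocyte sums overlapped between the groups, but some luminal and leukocyte markers did not. Krt19 lay at 9.91 to 14.6 CPM in DNTCF4 against 19.5 to 25.3 CPM in Vector. Esr1 stayed at or below 3.63 CPM in DNTCF4 and at or above 7.003 CPM in Vector. Krt18 went the other way, at 235 to 262 CPM in DNTCF4 against 227 to 232 CPM in Vector. Ptprc had 0 counts in all DNTCF4 libraries together and 31 in all Vector libraries, and Cd3e had 3 and 20. Within the basal list, Trp63 lay at 0.733 to 0.991 CPM in DNTCF4 against 7.95 to 8.91 CPM in Vector, while Krt17 lay at 2.20 to 2.59 CPM in DNTCF4 against 1.01 to 1.55 CPM in Vector. The mesenchymal markers, mostly Fn1, summed to 4487 to 4961 CPM in DNTCF4 against 9566 to 10328 CPM in Vector. Only Fn1 and Vim of this list were lower, Vim at 613 to 671 CPM in DNTCF4 against 990 to 1062 CPM in Vector. Prrx1 was higher, at 82.6 to 93.8 CPM in DNTCF4 against 19.2 to 20.4 CPM in Vector. So were Zeb1, at 80.6 to 94.9 CPM in DNTCF4 against 71.4 to 75.9 CPM in Vector, and Zeb2, at 117 to 126 against 103 to 110 CPM. Cdh2 overlapped between the groups, and Twist1 had no counts. The part of all these markers in the results was not tested. In bulk RNA, fewer cells of a type and less RNA per cell cannot be told apart.

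Adding the EZH2 construct to DNTCF4 went with higher transcripts of 12 of these genes, among them Ltbp1, Ltbp3 and Ltbp4, Tgfb2, Bmp1, Bmp2, the receptor genes Acvr1b, Bmpr2 and Tgfbr3, and Id1. In DNTCF4-EZH2 against DNTCF4, 12 of 46 genes (26.1%) rose and 3 (6.52%) fell, where 13.0% of all genes rose and 12.5% fell. The median log2 change was 0.09, against -0.00047 over all genes. None of the 46 had a called change of 2-fold or more, where only 1.73% of all genes tested did. This comparison shares the DNTCF4 libraries with the one above, so low values in those libraries enter both with opposite sign.

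Ltbp1 had 172, 174 and 176 CPM in DNTCF4-EZH2, against 124, 113 and 117 CPM in DNTCF4, and again had the smallest p (0.56, SE 0.044, adjusted p = 2.17e-07). It stayed below Vector, at -0.70 on the log2 scale (SE 0.043, adjusted p = 1.92e-09). Ltbp3 rose by 0.41 (SE 0.059), to 229 to 237 CPM in DNTCF4-EZH2 against 155 to 188 CPM in DNTCF4, and differed from Vector by 0.03 (95% interval -0.09 to 0.16). Ltbp4 rose by 0.45 (SE 0.075) and Bmp1 by 0.42 (SE 0.045), and both lay above Vector, by 0.27 (SE 0.075) and 0.48 (SE 0.045). The antagonists moved apart: Fstl1 rose by 0.24 (SE 0.036) and Grem1 fell by 0.28 (SE 0.045), to 162 to 169 CPM in DNTCF4-EZH2 against 188 to 216 CPM in DNTCF4. Fst fell by 0.18 (SE 0.049, adjusted p = 0.014), a call lost without DNTCF4-EZH2 replicate 1 or 3 (adjusted p = 0.075 and 0.057).

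Tgfb2 had 17.9, 17.5 and 17.5 CPM in DNTCF4-EZH2, against 12.8, 13.3 and 14.4 CPM in DNTCF4 (0.38, SE 0.062, adjusted p = 0.000364). It differed from Vector by -0.05 (95% interval -0.18 to 0.08). Bmp2 rose by 0.25 (SE 0.073), and that call was lost without DNTCF4 replicate 3 or DNTCF4-EZH2 replicate 1 or 3 (adjusted p of 0.085 to 0.101). It was also lost when only the 6 libraries compared were fitted. Ligands with large changes in DNTCF4 were not called here: Inhba was at -0.06 (95% interval -0.18 to 0.07), Bmp4 at 0.01 (-0.10 to 0.12) and Tgfb3 at -0.07 (-0.26 to 0.12). Nog stayed at 0.205, 0.196 and 0.101 CPM in DNTCF4-EZH2, with an interval of -1.22 to 1.28 that covers large changes in both directions.

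Among receptors, Bmpr2 rose by 0.17 (SE 0.038), Acvr1b by 0.17 (SE 0.040) and Tgfbr3 by 0.13 (SE 0.032), the last lost when only the 6 libraries compared were fitted (adjusted p = 0.058). Acvr2b was at 10.5, 11.2 and 11.3 CPM in DNTCF4-EZH2, against 8.50, 10.4 and 11 CPM in DNTCF4, with overlap and no call. Smad9 rose by 0.30 (SE 0.091, adjusted p = 0.023) and Smurf1 was lower at -0.12 (SE 0.034, adjusted p = 0.0175); these were lost in 7 and 5 alternatives. Id1 had 20.3, 18.5 and 19.8 CPM in DNTCF4-EZH2, against 15.2, 16.1 and 16.2 CPM in DNTCF4 (0.30, SE 0.073, adjusted p = 0.00637), with no overlap. The other target genes were not called; Tgfbi had 0.528, 0.719 and 0.505 CPM in DNTCF4-EZH2 (0.50, 95% interval -0.23 to 1.23).

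The count of 3 lower genes depended on single libraries: it was 5 without DNTCF4 replicate 1 and 1 without DNTCF4-EZH2 replicate 1. Of the 15 calls, 10 were kept in every alternative run.

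With the construct labelled SET added, transcripts of TGF-beta 2, activin B, BMP2, BMP6 and LTBP1 were higher than in DNTCF4 alone. In DNTCF4-SET against DNTCF4, 13 of 46 genes (28.3%) rose and 3 (6.52%) fell, where 12.7% of all genes rose and 13.3% fell; the median log2 change was 0.10, against -0.0040 over all genes. None of the 46 had a called change of 2-fold or more, where only 2.02% of all genes tested did. The comparison uses the same DNTCF4 libraries.

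Tgfb2 had 19.4, 19.9 and 20.3 CPM in DNTCF4-SET, against 12.8, 13.3 and 14.4 CPM in DNTCF4, and had the smallest p here (0.56, SE 0.062, adjusted p = 1.26e-05). Inhbb had 3.18, 2.63 and 2.61 CPM in DNTCF4-SET, against 1.83, 1.72 and 1.36 CPM in DNTCF4 (0.78, SE 0.17, adjusted p = 0.00349). Neither gene's groups overlapped, and neither gene was called against Vector, at 0.12 (95% interval -0.01 to 0.25) for Tgfb2 and -0.34 (-0.66 to -0.01) for Inhbb. Bmp6, a BMP ligand, rose by 0.41 (SE 0.10, adjusted p = 0.00776); 5.74% of its exon bases lie opposite exons of Txndc5, which had 81012 counts against 2142 for Bmp6. Bmp2 rose by 0.34 (SE 0.074), and Gdf15 fell by 0.20 (SE 0.055, adjusted p = 0.0134). The Gdf15 call was lost without DNTCF4-SET replicate 3 (adjusted p = 0.053) and when only the 6 libraries compared were fitted.

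Ltbp1 had 150, 149 and 150 CPM in DNTCF4-SET, against 124, 113 and 117 CPM in DNTCF4 (0.34, SE 0.044, adjusted p = 4.76e-05), and remained below Vector by -0.91 (SE 0.043). Ltbp3 rose by 0.28 (SE 0.059), Fstl1 by 0.28 (SE 0.036) and Bmp1 by 0.19 (SE 0.046), while Grem1 fell by 0.27 (SE 0.045). The Bmp1 call was lost when only the 6 libraries compared were fitted. Fst fell by 0.16 (SE 0.049, adjusted p = 0.0221). Its call was lost in that fit of 6 libraries too, and without DNTCF4 replicate 3 or DNTCF4-SET replicate 3 (adjusted p = 0.064 and 0.111). Nog had 0.322, 0.0376 and 0.334 CPM in DNTCF4-SET, below each Vector library (-2.37, SE 0.41, against Vector).

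The receptor gene Bmpr2 rose by 0.31 (SE 0.038), to 133 to 134 CPM in DNTCF4-SET against 105 to 111 CPM in DNTCF4; Acvr1b and Tgfbr3 rose by 0.17 each (SE 0.040 and 0.032). Acvr2b had 11, 10.8 and 10.4 CPM in DNTCF4-SET and was not called (0.10, SE 0.089). Ski rose by 0.20 (SE 0.037, adjusted p = 0.000932). Smad4 was called at 0.10 (SE 0.033, adjusted p = 0.0388) and lost that call in 7 alternatives. Tgfb3 had 6.76, 6.73 and 7.62 CPM in DNTCF4-SET, against 7.63, 8.31 and 7.15 CPM in DNTCF4, and was not called. Id1 had 14.1, 15.2 and 12.9 CPM in DNTCF4-SET, on or below the DNTCF4 values (-0.17, SE 0.075, adjusted p = 0.106), and Tgfbi had 0.644, 0.527 and 0.941 CPM (0.79, SE 0.33, adjusted p = 0.097). The 3 lower genes became 1 without DNTCF4-SET replicate 3, and 12 of the 16 calls were kept in every alternative run.

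**Figure D3:**
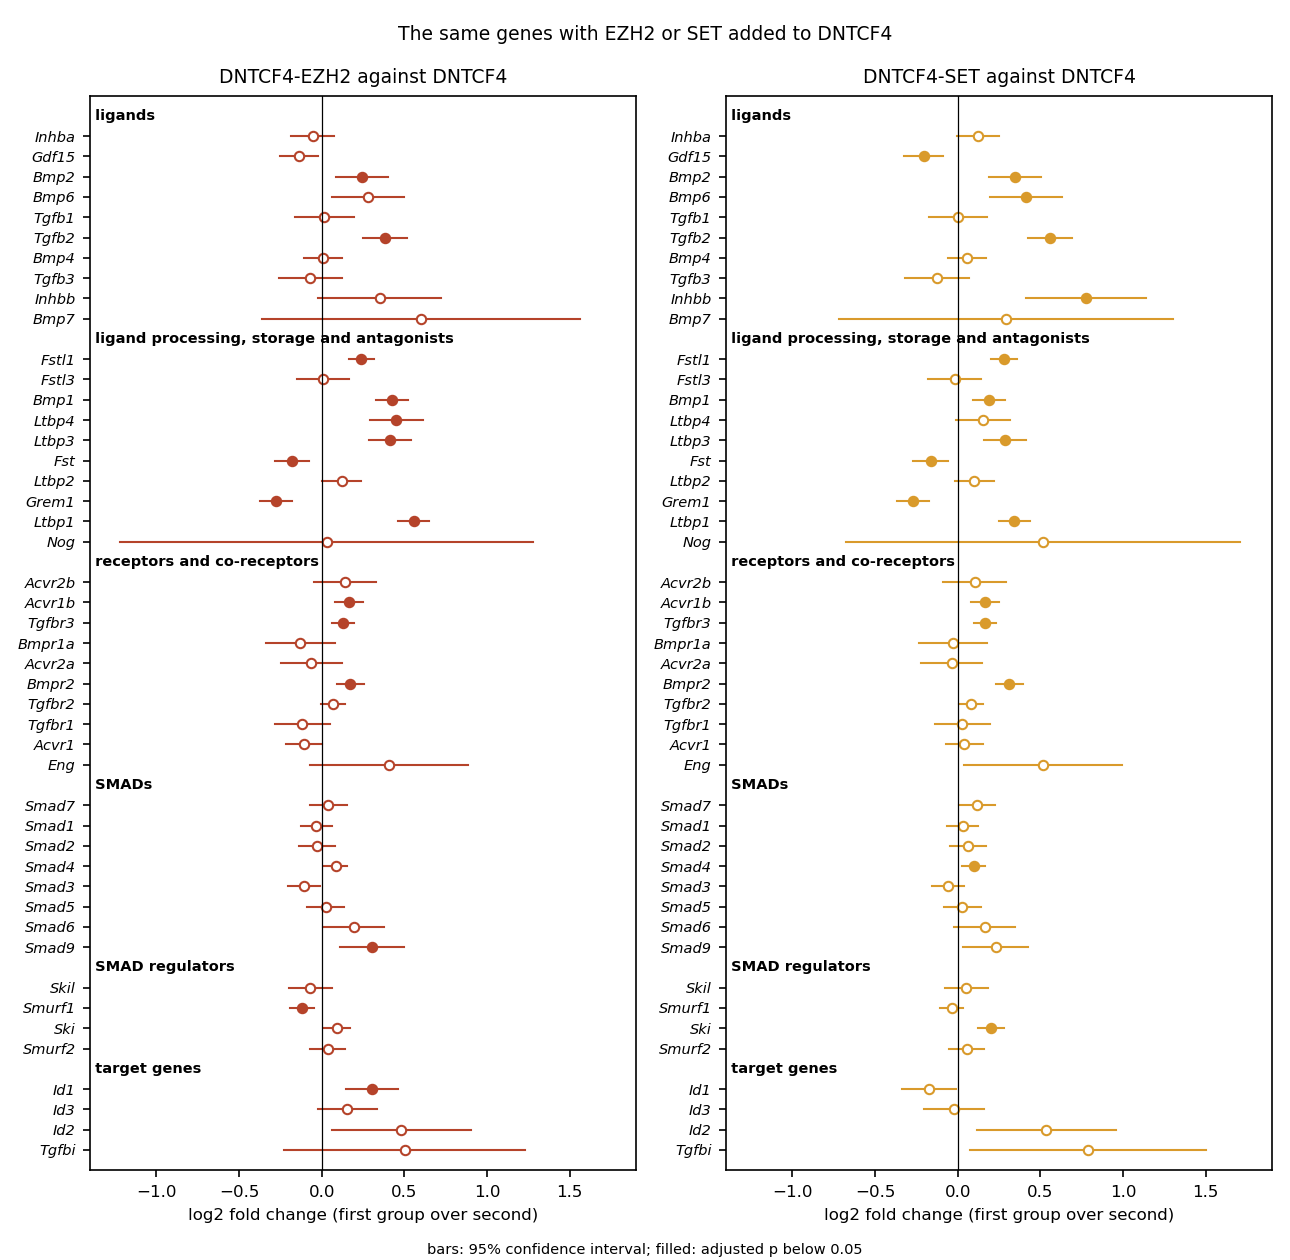
Log2 fold change of the 46 tested genes in DNTCF4-EZH2 (left) and DNTCF4-SET (right) against the same 3 DNTCF4 libraries, with 95% confidence intervals; filled points have an adjusted p below 0.05. Ltbp1, Ltbp3 and Tgfb2 lie right of 0 in both panels and Grem1 left of 0; Id1 lies at 0.30 with EZH2 and at -0.17 with SET.

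Set directly against each other, the 2 added constructs differed in few of these genes. In DNTCF4-EZH2 against DNTCF4-SET, 4 of 46 genes (8.70%) were higher and 1 (2.17%) was lower, where 3.0% of all genes were higher and 2.17% lower. Id1 had the smallest p, at 20.3, 18.5 and 19.8 CPM in DNTCF4-EZH2 against 14.1, 15.2 and 12.9 CPM in DNTCF4-SET (0.48, SE 0.073, adjusted p = 0.00149), and no library of the EZH2 group fell into the range of the SET group. Bmp1 was higher by 0.23 (SE 0.045, adjusted p = 0.00653) and Ltbp1 by 0.22 (SE 0.043, adjusted p = 0.00867).

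Ltbp4 was called at 0.30 (SE 0.074, adjusted p = 0.0291) and Bmpr2 at -0.14 (SE 0.038, adjusted p = 0.0483), and each lost its call whichever of the 6 libraries was left out, with adjusted p of 0.056 to 0.150 for Ltbp4 and 0.105 to 0.208 for Bmpr2. Tgfb2 and Inhbb did not pass the threshold between the constructs: -0.17 (95% interval -0.30 to -0.05, adjusted p = 0.115) and -0.43 (-0.77 to -0.08, adjusted p = 0.154). For Fst and Grem1 the differences were -0.01 (-0.12 to 0.09) and -0.01 (-0.11 to 0.09).

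**Figure D4:**
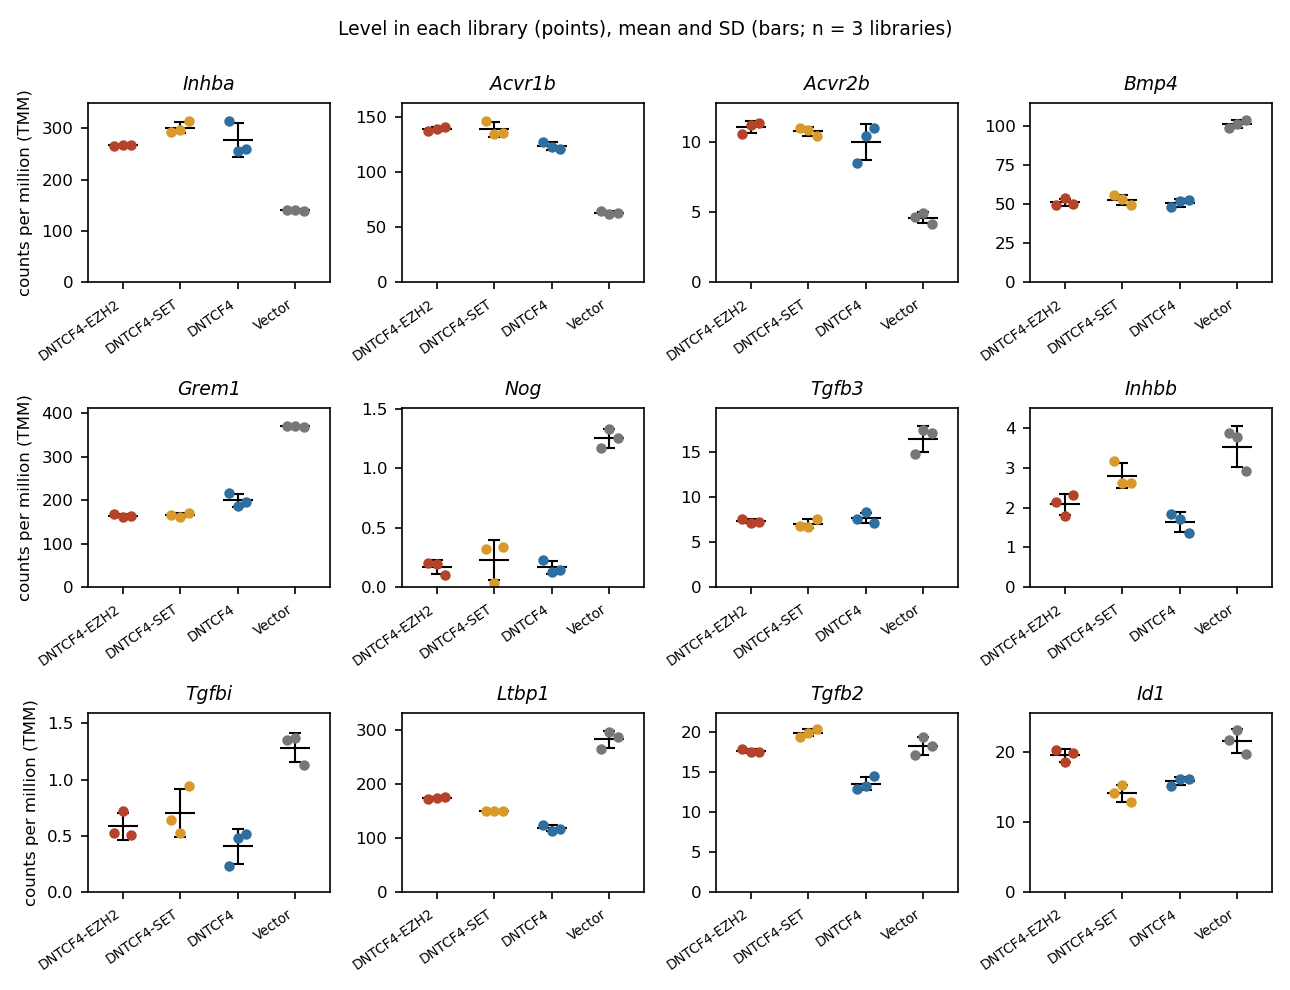
CPM of 12 genes in each library (points) with group mean and SD (bars, n = 3), in the order DNTCF4-EZH2, DNTCF4-SET, DNTCF4, Vector; each axis starts at 0. Inhba, Acvr1b and Acvr2b are high in the 3 groups with dominant negative TCF4; Bmp4, Grem1, Nog and Tgfb3 are low in them. Ltbp1 lies at 174 and 150 CPM on average in DNTCF4-EZH2 and DNTCF4-SET, between 118 in DNTCF4 and 282 in Vector.

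Against Vector, the groups with a second construct still differed in most of these genes; both comparisons use the 3 Vector libraries of the first one. In DNTCF4-EZH2, 17 of 46 genes (37.0%) were higher and 17 (37.0%) lower, where 28.7% of all genes were higher and 29.0% lower. In DNTCF4-SET, 18 (39.1%) were higher and 15 (32.6%) lower, where 28.1% were higher and 29.9% lower. Inhba was at 0.92 (SE 0.061) in DNTCF4-EZH2 and 1.10 (SE 0.061) in DNTCF4-SET, Acvr1b at 1.14 in both (SE 0.041 and 0.042) and Acvr2b at 1.26 (SE 0.099) and 1.22 (SE 0.10). Inhbb was at -0.76 (SE 0.16) in DNTCF4-EZH2 and -0.34 (SE 0.15, not called) in DNTCF4-SET, and Bmp2 at 0.60 (SE 0.076) in DNTCF4-EZH2 and 0.70 (SE 0.077) in DNTCF4-SET. Bmp4 was at -0.98 and -0.93 (SE 0.052 each), Tgfb3 at -1.16 (SE 0.083) and -1.22 (SE 0.085), and Nog at -2.86 (SE 0.43) and -2.37 (SE 0.41), in the same order. Grem1 was at -1.17 and -1.16 (SE 0.045 each), 2.25-fold and 2.23-fold lower. Id1 was called lower in DNTCF4-SET (-0.62, SE 0.074, adjusted p = 3.86e-06) and not in DNTCF4-EZH2 (-0.14, SE 0.071, adjusted p = 0.104); the difference between them is the 0.48 given above.

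Other genes of the pathway, listed apart from the 48, were counted in the same fits. Of 71 further pathway components 39 were tested, of 24 TGF-beta targets 21 and of 13 BMP targets 10. In DNTCF4 against Vector, where 29.5% of all genes rose and 28.0% fell, 10 components (25.6%) rose and 14 (35.9%) fell. Of the TGF-beta targets 5 (23.8%) rose and 11 (52.4%) fell, and of the 10 BMP targets 5 rose and 3 fell. The collagen genes Col1a2 and Col1a1, TGF-beta targets that form fibrillar collagen, fell by 2.29 (SE 0.040) and 1.84 (SE 0.061), to 169 ± 3.35 and 279 ± 21.7 CPM in DNTCF4 against 829 ± 22.4 and 1003 ± 75.5 CPM in Vector (SD, n = 3). Thbs1, whose product thrombospondin 1 can release active TGF-beta, fell by 1.37 (SE 0.035), and Itgb8, an integrin subunit that activates latent TGF-beta, by 1.47 (SE 0.11). Against these, the TGF-beta targets Cdkn1a, a cell cycle inhibitor, and Adam12, a metalloproteinase, rose by 1.14 (SE 0.072) and 1.34 (SE 0.085). Acvrl1, which encodes the type I receptor ALK1, rose by 2.10 (SE 0.24) and Emilin1, a matrix inhibitor of TGF-beta processing, by 2.25 (SE 0.21), both below 1 CPM in Vector. Among BMP targets, the homeobox gene Msx1 was at 1.71 (SE 0.26), and the transcription factor genes Atoh8 and Prrx2 were at -2.23 (SE 0.29) and -1.94 (SE 0.073).

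With EZH2 added to DNTCF4, where 13.0% of all genes rose and 12.5% fell, 9 of the 39 components (23.1%) rose and 3 (7.69%) fell, 6 of the 21 TGF-beta targets (28.6%) rose and 5 (23.8%) fell, and 3 of the 10 BMP targets rose and 1 fell. With SET added, where 12.7% of all genes rose and 13.3% fell, 8 components (20.5%) rose and 1 (2.56%) fell, 8 TGF-beta targets (38.1%) rose and 5 (23.8%) fell, and 3 BMP targets rose and 1 fell. Bambi, which encodes a decoy receptor without kinase activity, had 3.96 ± 0.436 CPM in DNTCF4-EZH2 and 4.05 ± 0.542 CPM in DNTCF4-SET, against 1.85 ± 0.0961 CPM in DNTCF4 (SD, n = 3); it rose by 1.10 (SE 0.14, adjusted p = 3.7e-05) and 1.13 (SE 0.14, adjusted p = 3.3e-05). Col1a2 rose by 0.54 with EZH2 and 0.39 with SET (SE 0.039 each), Thbs1 by 0.47 and 0.56 (SE 0.035 each) and Itgb8 by 0.54 and 0.55 (SE 0.12 each). The early TGF-beta response gene Klf10 fell by 0.29 and 0.33 (SE 0.041 each). Between the constructs, Col1a2 was higher by 0.16 (SE 0.038, adjusted p = 0.027) and Pmepa1, a TGF-beta target, was lower, at -0.22 (SE 0.060, adjusted p = 0.048), in DNTCF4-EZH2 than in DNTCF4-SET.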

How the data were processed

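RNA of 12 libraries was sequenced, with groups and replicate numbers as in their titles. The authors deposited expected counts per gene, not normalised, and log2 (rlog) values for 21754 genes. Tools on GRCm38 were STAR 2.7.8a, RSEM 1.3.3, cutadapt 2.3, DESeq2 and FastQC 0.11.8, per the submitters' processing notes. The sources used here do not give strand use. RSEM splits multimapping reads between genes by estimate. Rounding changed nothing, since the deposited values were whole. A floor of 3 counts is 0.0882 to 0.127 CPM, which covers counting error only.

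The main test was edgeR 4.0.16 (R 4.3.3): filterByExpr (minimum count 10), TMM, 1 fit of 12 libraries with a mean per group (8 residual degrees of freedom), quasi-likelihood tests, two-sided, Benjamini-Hochberg over 15052 genes, threshold 0.05. The standard error is the absolute log2 change over the square root of F. Exon lengths and positions came from GENCODE by gene ID, which matched 55141 genes, and promoters from RefSeq. The genes and lists were chosen with earlier results of these data known. Genes given library by library were those called with a 2-fold change at 1 CPM or more in the higher group, those with the smallest p per comparison, and, chosen after their values were seen, Inhba, Bmp4, Tgfb1, Grem1, Acvr1b, Smad7 and Skil. Of the other lists, up to 3 genes per direction by p were eligible.

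Alternatives were DESeq2 size factors, the DESeq2 1.42.0 Wald test, limma 3.58.1 on the rlog values, no filter, only the 6 libraries compared, a block for the replicate number, and each library left out. Replicates of a group differed beyond sampling noise in all 12 pairs (chi-square per degree of freedom 2.59 to 20.7). Each was kept as a library of its own, though such spread may be technical and does not show that cultures were separate. Deviations of same-numbered libraries from their group means had correlations of 0.335, 0.587 and 0.157 between DNTCF4-SET and Vector. The labels give no pairing, and 3 libraries per group do not establish one, so the main fit had no term for it. The test was run on simulated data first.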

Additional observations from a re-analysis of the deposited data

How the results depend on the processing

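Over all 6 comparisons and all alternatives, the 46 genes kept their side of the threshold in 3148 values, gained a call in 69, lost one in 94 and changed sign with a call in 1; sign changes of values not called in either setting were not counted. The reversal was Bmpr1a in DNTCF4-SET against DNTCF4, at 0.15 (adjusted p = 0.012) without DNTCF4 replicate 1, against -0.03 with it, in a range of -0.13 to 0.15 over libraries left out; the cause was not tested. Lower genes in DNTCF4-EZH2 against DNTCF4 numbered 1 to 5 when a library was left out, and in DNTCF4-SET against DNTCF4 1 to 3, and 1 with only the 6 libraries compared, where 2548 genes were called in place of 3914. In DNTCF4-EZH2 against DNTCF4-SET, edgeR called 1 lower gene, and 7 lay at an unadjusted p under 0.05. The 1 called lower became 8 with only the 6 libraries, 3 with DESeq2 and 0 with each library left out. The 777 genes called became 2132 with only the 6 libraries and 374 to 460 with a library left out. The cause of these shifts was not tested. With the replicate block the count of lower genes was 0, and 7 lay at an unadjusted p under 0.05.

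The replicate block, in the comparison of DNTCF4-SET with Vector, left 18 genes higher and 15 lower and changed no call among the 46. Elsewhere the correlations between same-numbered libraries were of mixed sign. There the block added a call for Acvr2a in DNTCF4 against Vector (adjusted p = 0.038) and removed those of Bmpr2 between the constructs and Smad4 with SET (adjusted p = 0.057 each). Of genes called in DNTCF4 against Vector, 51.3% were higher, against 41.0% with limma on rlog values and 42.1% without the filter. DESeq2 size factors moved the median of all genes by at most 0.016. Depth limits Nog, Bmp7, Tgfbi, Inhbb, Id2 and Eng, and leaves Bmpr1b and Id4 untested.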
